A study of Mus musculus with 12 samples.

Results

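Sfpq, Nono, Pspc1, Taf15, Ewsr1 and Matr3 were examined here as 6 related nuclear RNA-binding protein genes, out of 38215 genes in the count table, of which 14983 were expressed well enough to be tested. They were taken as a named group because the last exon bin of the counting unit that holds Sfpq rose strongly with SF3a1 siRNA. The group was thus chosen by its values in the SF3a1 comparisons, and those of the genes and of their bins are given below as a description without a p-value. The effects of LPS on the same genes were not themselves used in the choice and were tested. So was the difference between the SF3a1 effects without and with LPS. These tests share libraries with the SF3a1 comparisons, and the difference is made up of those comparisons. They are thus not fully independent of the choice. The 6 genes have 154 exon bins among 354841 in all. Of these 154, 134 passed the filter on low counts, among 153624 bins tested.

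The libraries were polyadenylated RNA from RAW264.7, an established mouse macrophage line of BALB/c origin, transfected either with a non-targeting control siRNA or with siRNA against Sf3a1. After 24 hours the cells were left without LPS or exposed for 4 hours to 20 ng/ml LPS, the bacterial cell wall component that TLR4 recognises. This gave 4 groups of 3 libraries, named below by their siRNA and by whether LPS was added. The libraries held from 12746019 to 41091887 reads on genes. The 4 libraries numbered 1 each pooled 2 sequencing runs, and the others came from 1 run. All groups are a single cell line, and every library carries either the control or the SF3a1 siRNA, so no untransfected cells enter the comparisons. All 10 macrophage markers examined had counts in all 12 libraries, from Lyz2, the macrophage lysozyme, at 4980 to 9890 CPM (a level corrected for library size) down to Mertk, an engulfment receptor, at 0.0852 to 2.6 CPM. Summed over the 10 markers the level without LPS was 9900 to 11300 CPM with control siRNA and 12800 to 14100 CPM with SF3a1 siRNA, and with LPS it was 12600 to 14300 CPM and 12600 to 16500 CPM. None of 17 markers of fibroblasts, epithelial cells, T cells or B cells exceeded 0.363 CPM in any library, and Cd8a, a T cell marker, was at 0 in all 12.

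SFPQ, NONO and PSPC1 form the DBHS family of the Drosophila behaviour and human splicing proteins, which pair with each other and, on the long noncoding RNA Neat1, build nuclear bodies called paraspeckles. TAF15 and EWSR1 belong to the FET family, which binds RNA and RNA polymerase II and has a prion-like tail that helps such bodies condense. MATR3 is an abundant nuclear matrix protein that binds RNA and partners with SFPQ and with splicing repressors of the PTB family. SF3A1, the protein targeted here, is part of the SF3a complex, which lets the U2 small nuclear ribonucleoprotein recognise the branch point at the 3′ end of an intron.

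Sf3a1 itself was examined first as a check of the labels. Its level was 173, 216 and 185 CPM with control siRNA without LPS and 27.1, 27.5 and 32.1 CPM with SF3a1 siRNA without LPS. With LPS it was 150, 194 and 157 CPM with control siRNA and 30.3, 26.7 and 45.0 CPM with SF3a1 siRNA. Every library labelled SF3a1 siRNA was thus far below every control library. The log2 change was −2.73 ± 0.20 (SE) without LPS (adjusted p = 1.14e-05, edgeR quasi-likelihood test with Benjamini-Hochberg adjustment over 14983 genes) and −2.30 ± 0.20 with LPS (adjusted p = 1.47e-05).

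The counting unit of Sfpq joins it to Gm12940, an annotated noncoding transcript gene, because exons of the transcript Sfpq-206 overlap those of Gm12940. Both genes lie on the forward strand of chromosome 4 (mm10), Sfpq (ENSMUSG00000028820) from 127021324 to 127037013 and Gm12940 (ENSMUSG00000085334) from 127033731 to 127049398. The main coding transcript of Sfpq has 10 exons and ends with bin 20 of the 30 bins in the unit (chr4:127029827-127031236). Bins 25, 26, 28 and 29, 216 nt in all, are exons of both Sfpq-206 and Gm12940 transcripts. Bin 30, the last bin (chr4:127047690-127049398, 1709 nt), belongs only to the transcript Gm12940-202 and lies 10677 nt beyond the annotated end of Sfpq. The junctions that lead into these bins are shown because they show which bins the transcripts share and where they part. Each line holds the last 30 bases of the upstream exon in lower case and the first 30 bases of the downstream exon in capitals, 5′ to 3′, from GENCODE vM21 transcripts on mm10.
Main Sfpq transcript, bin 17 to bin 20: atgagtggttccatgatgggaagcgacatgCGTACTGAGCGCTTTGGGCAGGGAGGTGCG
Sfpq-206, bin 17 to bin 25: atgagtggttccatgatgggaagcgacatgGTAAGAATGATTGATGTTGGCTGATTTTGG
Sfpq-206 and another Gm12940 transcript, bin 26 to bin 28: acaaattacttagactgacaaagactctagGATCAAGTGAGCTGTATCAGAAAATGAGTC
Gm12940-202, bin 26 to bin 30: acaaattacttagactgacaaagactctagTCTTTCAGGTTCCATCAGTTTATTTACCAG

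The main transcript and Sfpq-206 share the upstream exon that ends at 127027518 and part at the next exon, and Gm12940-202 shares with Sfpq-206 and the other Gm12940 transcript the exon that ends at 127036649 and parts from them at the next. Bin 30 ends with the following 60 bases on the forward strand, in which the capitals mark the polyadenylation hexamer AATAAA.
End of bin 30: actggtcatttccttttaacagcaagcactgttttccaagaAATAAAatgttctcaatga
The hexamer was searched on the transcript strand in the last 50 bases of all annotated transcripts, and 26.6% of 141672 hold it.

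The last bin of the unit held few reads with control siRNA and many with SF3a1 siRNA. It had 5, 2 and 11 counts with control siRNA without LPS and 14 and 6 counts with control siRNA with LPS, where the exon bins of replicate 3 were not analysed here. With SF3a1 siRNA it had 69, 74 and 41 counts without LPS and 76, 112 and 146 counts with LPS. Every SF3a1 library was above every control library, although the control libraries include the deepest. As a share of the counts of the unit, this was 0.0277% ± 0.0244 (SD, n = 3) and 0.0601% ± 0.000184 (n = 2) with control siRNA without and with LPS, against 0.992% ± 0.197 (n = 3) and 1.35% ± 0.683 (n = 3) with SF3a1 siRNA. Relative to the whole unit, the bin changed by 5.19 on the log2 scale with SF3a1 siRNA without LPS and by 4.55 with LPS. With LPS the SF3a1 libraries also spread widely, at 0.572%, 1.84% and 1.64% of the unit, with replicate 1 the lowest. Without replicate 3 of control siRNA without LPS, the mean share of that group was 0.0137%.

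The rest of the unit was used to see what changed beside the last bin. Bins of the exons of the main Sfpq transcript summed to 539 ± 67.0 CPM (SD, n = 3) and 513 ± 109 CPM (n = 2) with control siRNA without and with LPS, and to 236 ± 25.5 and 298 ± 9.83 CPM (n = 3 each) in the SF3a1 groups. The last bin moved the other way, from 0.159 ± 0.153 and 0.315 ± 0.0666 CPM to 2.50 ± 0.766 and 4.32 ± 2.29 CPM. The bins shared by Sfpq-206 and Gm12940 held 6.0 ± 1.18 and 5.4 ± 1.41 CPM with control siRNA and 5.95 ± 2.66 and 7.82 ± 2.31 CPM with SF3a1 siRNA, so their level overlapped between the siRNAs while their share of the unit was 1.08% and 1.02% against 2.34% and 2.47%. The other 5 bins held by Gm12940 alone (755 nt) were at 2.12 ± 0.161 and 1.53 ± 0.196 CPM with control siRNA, without and with LPS. With SF3a1 siRNA they were at 1.14 ± 0.633 and 1.61 ± 0.576 CPM. Unlike the last bin, they were lower with SF3a1 siRNA without overlap in the absence of LPS, and overlapped in its presence. Bin 25 changed by 1.04 and 1.46 on the log2 scale relative to the unit, without and with LPS, and its share did not overlap between the siRNAs in either comparison. Bin 29 changed by 1.09 and 1.51, with overlapping shares. The 6 bins within introns of the main transcript held 0.945% ± 0.102 and 0.851% ± 0.182 of the unit with control siRNA and 1.17% ± 0.0366 and 0.880% ± 0.0704 with SF3a1 siRNA. Even with SF3a1 siRNA, the main Sfpq exons made up 95.1% ± 1.09 and 94.8% ± 1.36 of the counts of the unit.

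**Figure D1:**
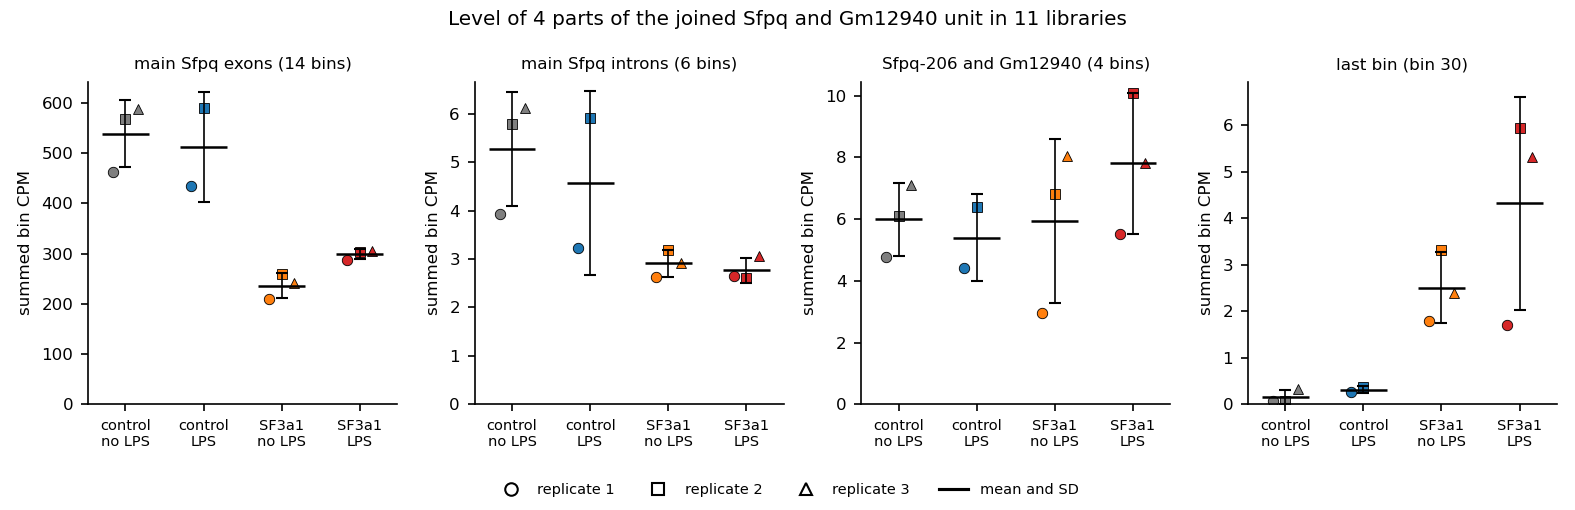
Summed level in CPM of 4 parts of the joined Sfpq and Gm12940 unit in 11 libraries, by group, with symbols for the replicate and bars for the mean and SD. The last bin lies at or below 0.362 CPM in the 5 control libraries and between 1.70 and 5.95 CPM in the 6 SF3a1 libraries, whereas the main Sfpq exons go from between 435 and 590 CPM to between 209 and 305 CPM.

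**Figure D2:**
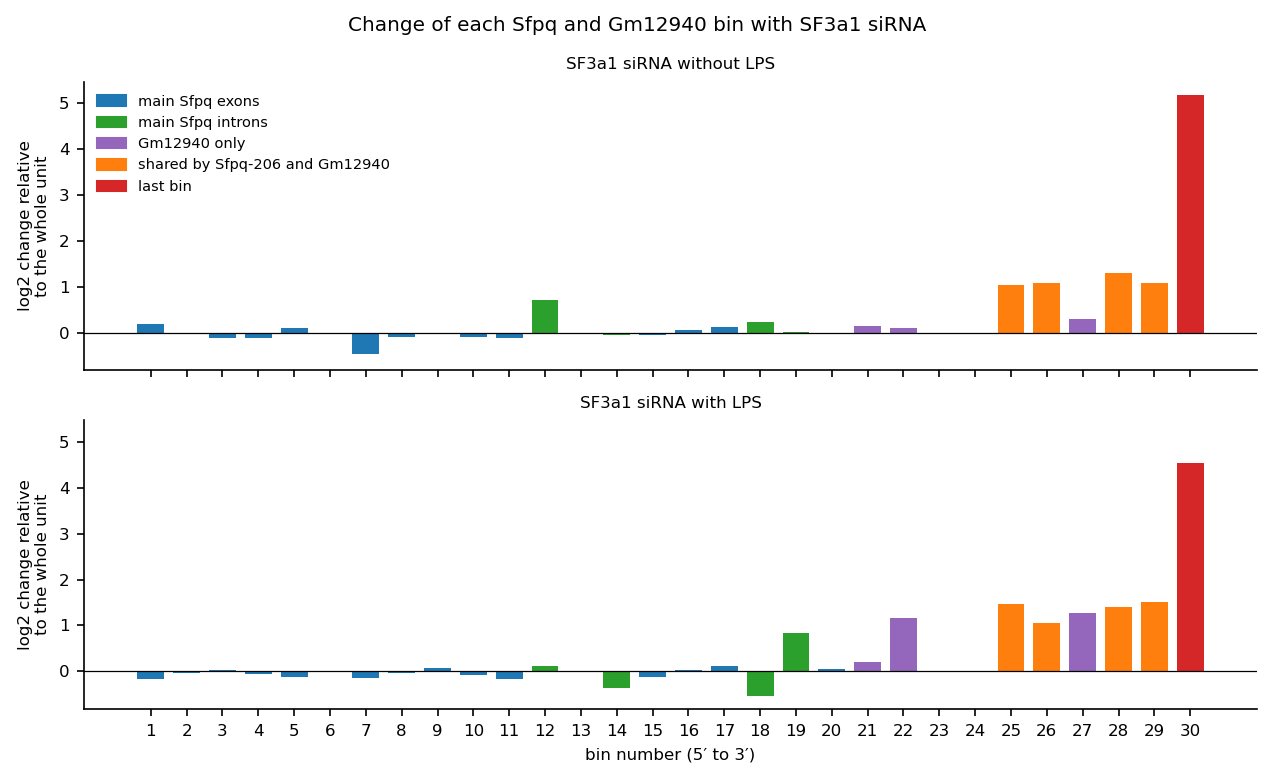
Log2 change of each bin of the joined Sfpq and Gm12940 unit with SF3a1 siRNA relative to the whole unit, without LPS (top) and with LPS (bottom), with bars coloured by the transcripts that hold the bin. Bins 6, 13, 23 and 24 have no bar because they failed the filter on low counts. The last bin stands at 5.19 and 4.55, and the bins shared by Sfpq-206 and Gm12940 lie between 1.04 and 1.51.

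The last bin overlaps a gene on the other strand, which was named here after its values were seen. Zmym1 (ENSMUSG00000043872), a zinc finger gene, lies on the reverse strand from 127047094 to 127061152, and 2 of its bins (chr4:127047642-127049612) cover the whole of bin 30. These 2 bins held 663, 430 and 355 counts with control siRNA without LPS, 290 and 117 with control siRNA with LPS, and, with SF3a1 siRNA, 359, 226 and 198 without LPS and 383, 228 and 278 with LPS. The last bin of the Sfpq unit was thus 0.465% to 5.13% of the Zmym1 counts over the same stretch in the control libraries and 19.2% to 52.5% in the SF3a1 libraries. The bins differ in length, and whether the deposited counting used strand is not given in the sources used here. In the control libraries the 2 genes were given very different counts over this stretch. How fully reads of the 2 strands were told apart was not tested. At the gene level Zmym1 had a log2 change of −0.12 ± 0.18 with SF3a1 siRNA without LPS (adjusted p = 0.688) and rose by 0.59 ± 0.18 with LPS (adjusted p = 0.0263). With control siRNA it fell by 0.73 on the log2 scale with LPS (SE 0.18, adjusted p = 0.009). Its SF3a1 effects without and with LPS differed by 0.71 ± 0.26, which passed the threshold with the replicate block (adjusted p = 0.0485) and not without it (adjusted p = 0.216). The part of Zmym1 transcription in the counts of the last bin was not tested.

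At the gene level, where reads that fit both genes were left uncounted, Gm12940 was at 2.82, 2.90 and 3.45 CPM with control siRNA without LPS and at 2.47, 2.31 and 4.21 CPM with control siRNA with LPS. In the SF3a1 libraries it was at 3.28, 6.35 and 4.24 CPM without LPS and at 3.72, 8.34 and 9.91 CPM with LPS. The groups overlapped in both comparisons, and the log2 changes were 0.59 ± 0.38 and 1.28 ± 0.38. Within pairs of the same replicate number the log2 differences were 0.21, 1.11 and 0.29 without LPS and 0.57, 1.82 and 1.22 with LPS, higher in 3 of 3 pairs in each. LPS gave Gm12940 a log2 change of −0.03 ± 0.38 with control siRNA (adjusted p = 0.971) and 0.66 ± 0.37 with SF3a1 siRNA (adjusted p = 0.390, higher in 3 of 3 pairs), neither past the threshold, with the block or without it.

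Sfpq, Nono, Taf15 and Ewsr1 were lower with SF3a1 siRNA whether or not LPS was added, while Matr3 was lower without LPS and overlapped between the siRNAs with LPS. At an adjusted p of 0.1, 5 of the 6 genes (all but Pspc1) were lower without LPS, where 20.1% of all tested genes were, and 4 of 6 (Sfpq, Nono, Taf15 and Ewsr1) were lower with LPS, where 20.4% of all genes were. Because these values belong to the comparisons that chose the genes, nothing further is read from the counts. In bulk RNA, less transcript per cell and fewer cells that make the transcript cannot be told apart.

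Sfpq, the DBHS protein with roles in transcription, splicing and paraspeckle assembly, was the most abundant of the 6 per length of transcript, at 110 ± 13.1 CPM per kb of exon (SD, n = 3) with control siRNA without LPS. Its gene-level values were 452, 558 and 560 CPM with control siRNA without LPS and 402, 548 and 547 CPM with control siRNA with LPS. With SF3a1 siRNA they were 197, 225 and 213 CPM without LPS and 256, 242 and 273 CPM with LPS. The siRNA groups did not overlap, and among the SF3a1 libraries all 3 with LPS were above all 3 without. The log2 change with SF3a1 siRNA was −1.31 ± 0.15 (SE) without LPS and −0.95 ± 0.15 with LPS. The difference of 0.35 ± 0.21 between these effects did not pass the threshold (adjusted p = 0.572). LPS gave a log2 change of −0.07 ± 0.15 with control siRNA (adjusted p = 0.796) and 0.28 ± 0.15 with SF3a1 siRNA (adjusted p = 0.352). The former was lower and the latter higher in 3 of 3 pairs of the same replicate number.

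Nono (ENSMUSG00000031311, chromosome X, 101429318 to 101448591, forward strand), the usual partner of SFPQ, was nearly level between the groups without and with LPS of either siRNA. It was at 259, 223 and 246 CPM with control siRNA without LPS and at 256, 236 and 235 CPM with control siRNA with LPS. The SF3a1 libraries were at 153, 109 and 112 CPM without LPS and at 155, 116 and 125 CPM with LPS. Replicate 1 was the highest of each SF3a1 group, and still below every control library. The log2 change with SF3a1 siRNA was −0.96 ± 0.16 without LPS and −0.88 ± 0.16 with LPS. With LPS the log2 change was 0.00 ± 0.16 with control siRNA (adjusted p = 0.999) and 0.08 ± 0.16 with SF3a1 siRNA (adjusted p = 0.886), and the difference of the SF3a1 effects was 0.08 ± 0.23 (adjusted p = 0.958).

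Pspc1 (ENSMUSG00000021938, chromosome 14, 56720710 to 56778316, reverse strand), the third DBHS protein, was the least abundant per length, at 10.0 ± 3.55 CPM per kb with control siRNA without LPS. Its values were 34.2, 65.0 and 72.7 CPM with control siRNA without LPS and 21.1, 41.5 and 46.4 CPM with control siRNA with LPS. With SF3a1 siRNA they were 46.5, 50.6 and 66.2 CPM without LPS and 30.4, 51.6 and 58.9 CPM with LPS. Replicate 1 was the lowest of every group, and the 2 groups of each SF3a1 or LPS comparison overlapped. The log2 change with SF3a1 siRNA was −0.07 ± 0.34 without LPS and 0.37 ± 0.34 with LPS. Within pairs of the same replicate number the log2 differences were 0.44, −0.36 and −0.14 without LPS and 0.53, 0.31 and 0.34 with LPS. With control siRNA LPS gave a log2 change of −0.66 ± 0.34, which did not pass the threshold (adjusted p = 0.191). Within the 3 pairs of the same replicate number, however, the log2 differences were −0.69, −0.65 and −0.65, and once the replicate number entered the model as a block Pspc1 fell with LPS (adjusted p = 0.00397). With SF3a1 siRNA the log2 change with LPS was −0.21 ± 0.34 (adjusted p = 0.849). The difference of the SF3a1 effects, 0.45 ± 0.48, did not pass the threshold (adjusted p = 0.836, and 0.337 with the block).

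Taf15 (ENSMUSG00000020680, chromosome 11, 83473086 to 83506743, forward strand), a FET protein also found with the general transcription factor TFIID, was lower with SF3a1 siRNA by a similar amount without and with LPS. It was at 110, 147 and 131 CPM with control siRNA without LPS and at 121, 172 and 160 CPM with control siRNA with LPS. Under SF3a1 siRNA its level was 50.9, 57.7 and 52.9 CPM without LPS and 54.9, 60.1 and 58.5 CPM with LPS. The SF3a1 libraries lay close together and below every control library. The log2 change was −1.27 ± 0.16 without LPS and −1.38 ± 0.16 with LPS, a difference of −0.12 ± 0.22 (adjusted p = 0.934). The log2 change with LPS was 0.22 ± 0.16 with control siRNA (adjusted p = 0.353) and 0.10 ± 0.16 with SF3a1 siRNA (adjusted p = 0.839). Without replicate 1 of control siRNA with LPS, the former was 0.36 and just passed (adjusted p = 0.0997).

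Ewsr1 (ENSMUSG00000009079, chromosome 11, 5069689 to 5099266, reverse strand), the FET gene known from the fusions of Ewing sarcoma, followed the same order of groups. Its values were 320, 304 and 316 CPM with control siRNA without LPS and 284, 344 and 330 CPM with control siRNA with LPS. With SF3a1 siRNA they were 167, 129 and 143 CPM without LPS and 173, 141 and 160 CPM with LPS, none overlapping the controls. The log2 change with SF3a1 siRNA was −1.10 ± 0.14 without LPS and −1.01 ± 0.14 with LPS. With LPS the log2 change was 0.03 ± 0.14 with control siRNA (adjusted p = 0.925) and 0.11 ± 0.14 with SF3a1 siRNA (adjusted p = 0.774), and the SF3a1 effects differed by 0.09 ± 0.20 (adjusted p = 0.948).

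Matr3 (ENSMUSG00000037236, chromosome 18, forward strand) moved least among the 5 genes that were lower without LPS. It was at 182, 246 and 226 CPM with control siRNA without LPS and at 162, 211 and 226 CPM with control siRNA with LPS. In the SF3a1 libraries Matr3 was at 131, 170 and 167 CPM without LPS and at 155, 194 and 217 CPM with LPS. The groups without LPS did not overlap, while those with LPS did. The log2 change with SF3a1 siRNA was −0.49 ± 0.18 without LPS and −0.08 ± 0.18 with LPS, a difference of 0.40 ± 0.26 that did not pass the threshold (adjusted p = 0.603). With LPS the log2 change was −0.12 ± 0.18 with control siRNA (adjusted p = 0.690). With SF3a1 siRNA it was 0.28 ± 0.18 (adjusted p = 0.484), and with the block it passed the threshold (adjusted p = 0.0880, higher in 3 of 3 pairs). Gm28285, a gene that overlaps Matr3 on the same strand, was not in the count table.

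In the comparisons not themselves used in their choice, none of the 6 genes was called by edgeR with all 12 libraries, the filter on low counts and no replicate block. With the block Pspc1 and Matr3 were called once each, as given above, and Pspc1 and Taf15 were also called for LPS with control siRNA under some other settings. With LPS, 32.1% of all tested genes were called with control siRNA and 10.7% with SF3a1 siRNA in either direction, and the difference of the SF3a1 effects was called for 3.47% of genes. In order of level, Nono, Taf15 and Ewsr1 each had the SF3a1 groups below the control groups, with overlap between the groups without and with LPS of the same siRNA. For Sfpq the SF3a1 libraries with LPS also lay above those without. For Pspc1 no neighbouring groups in the order were separate, and the same held for Matr3.

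**Figure D3:**
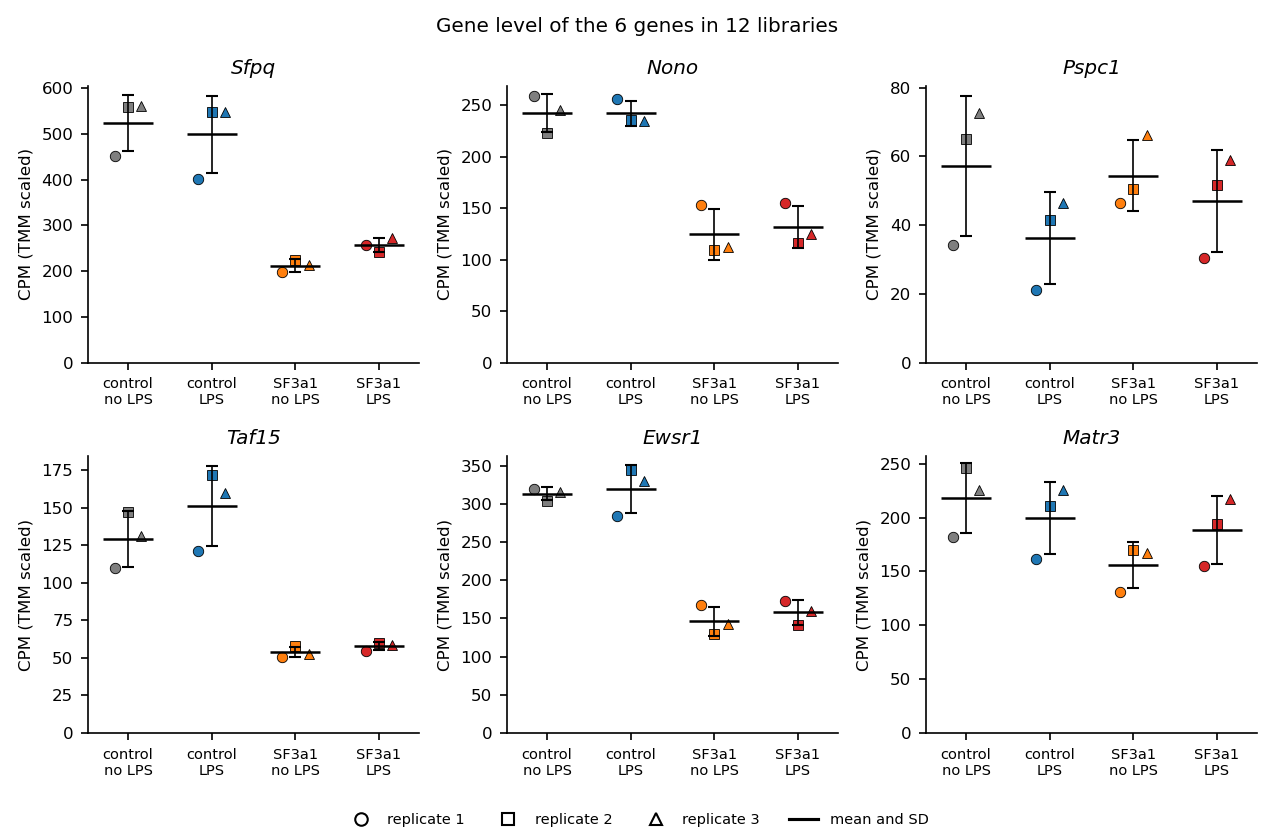
Level of Sfpq, Nono, Pspc1, Taf15, Ewsr1 and Matr3 in CPM scaled by TMM in 12 libraries, by group, with symbols for the replicate and bars for the mean and SD of 3 libraries. Sfpq, Nono, Taf15 and Ewsr1 show SF3a1 libraries below all control libraries, and Pspc1 and Matr3 overlap with LPS.

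The other genes were examined bin by bin to see whether the composition of their transcripts moved together with their level. The bin model tests the change of a bin relative to its whole gene and gives no standard error. Bin 30 of the Sfpq unit, whose rise chose the group, passed the threshold with SF3a1 siRNA without and with LPS by that choice. Of the other member bins, bins 22 and 24 of Ewsr1 did so without LPS, where 0.497% of all bins were called higher, and bin 24 of Ewsr1 with LPS, where 0.381% were. These comparisons belong to the choice of the group, and nothing is read from the counts. Bin 22 falls outside the rule for naming bins and was named because it was called. In the comparisons not used in the choice, none of the 134 bins was called, and the lowest adjusted p was 1.0. The background there was 0.0801% of bins for LPS with control siRNA, 0.0254% for LPS with SF3a1 siRNA and 0% for the difference of the SF3a1 effects. For this difference, edgeR called 0 of 153624 bins, while 2071 had an unadjusted p below 0.05 and limma-voom and a DEXSeq model called 1 and 4 bins. For LPS, the log2 change of bin 30 of the Sfpq unit relative to the unit was 1.08 with control siRNA and 0.44 with SF3a1 siRNA, neither of them called. The group was chosen on this bin, which in the control libraries held 5, 2 and 11 counts without LPS and 14 and 6 with LPS. Such low counts leave little power to call a change, so nothing is read from the missing calls.

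The called bins of Ewsr1 lay within its introns. Its bins are numbered from the 3′ end of the gene, since it lies on the reverse strand. Bins 22, 23 and 24 lie within intron 9 of the main transcript Ewsr1-205 (2733 nt) and bin 19 is the whole of intron 10 (532 nt), each held by another annotated transcript. Bin 24 (chr11:5082022-5082252), the start of intron 9, had 93, 58 and 62 counts with control siRNA without LPS and 35 and 22 with control siRNA with LPS. With SF3a1 siRNA it had 73, 77 and 37 counts without LPS and 77, 41 and 87 with LPS, although the gene as a whole was less abundant. Its share of the counts of the gene did not overlap between the siRNAs, and it changed relative to the gene by 1.5 and 2.22 on the log2 scale, without and with LPS. Bin 22 changed by 1.42 and 1.52 and bin 19 by 1.19 and 1.46, both without overlap in their shares. Bin 23 changed by 0.75 and 1.51, with overlapping shares. Bins 19 and 23 fall outside the rule for naming bins, and neither was called. The gene has 10 intron bins, and not all of them are described. Bin 13, in intron 13, changed by 1.01 and 2.11, with no more than 26 counts in any library. Bin 42, the most 5′ bin, held by Ewsr1-203, changed by −1.63 and −0.36, from 51, 26 and 16 counts with control siRNA without LPS to 5, 3 and 1 with SF3a1 siRNA. It overlaps Rhbdd3, a gene on the other strand.

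In all, bins within introns made up 2.69%, 2.55% and 3.07% of Ewsr1 counts with control siRNA without LPS and 2.03% and 2.17% with control siRNA with LPS. With SF3a1 siRNA they made up 3.77%, 6.99% and 5.56% without LPS and 3.92%, 4.59% and 6.20% with LPS. The shares did not overlap between the siRNAs. The difference of the means was 2.67 percentage points without LPS and 2.80 with LPS, against medians of 0.18 and 0.11 points over 2776 counting units with at least 200 counts in each library. Among these units, 25.3% without LPS and 27.4% with LPS had intron shares that were higher with SF3a1 siRNA without overlap, so the absence of overlap itself was common. In level, the Ewsr1 intron bins summed to 10.6 ± 1.58 and 8.47 ± 1.77 CPM in the control groups (n = 3 and n = 2) and to 10.4 ± 2.15 and 10.4 ± 2.33 CPM in the SF3a1 groups (n = 3 each). Its exon bins went from 364 ± 18.5 and 385 ± 62.7 CPM to 181 ± 20.7 and 199 ± 7.94 CPM, so the exon level differed between the siRNAs while the intron level overlapped.

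The 3′ ends of the Ewsr1 introns that hold these bins are given because this is where U2 and the splice acceptor are recognised. Each line holds the last 50 bases of the intron on the reverse strand of chromosome 11 (mm10), 5′ to 3′, as an annotated transcript that keeps them has them, with the final AG of the intron in capitals.
Intron 9, chr11:5079520-5079569: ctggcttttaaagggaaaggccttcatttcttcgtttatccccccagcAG
Intron 10, chr11:5078953-5079002: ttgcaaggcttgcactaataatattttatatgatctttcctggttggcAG
Intron 13, chr11:5071643-5071692: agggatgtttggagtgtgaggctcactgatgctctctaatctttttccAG
Of the 18 bases before the AG, 14 (77.8%) were pyrimidines in intron 9, 12 (66.7%) in intron 10 and 15 (83.3%) in intron 13. For comparison, Nono intron 9 and Sfpq intron 6, which annotated transcripts also keep, ended as follows on the forward strands of chromosomes X and 4.
Nono intron 9, chrX:101445245-101445294: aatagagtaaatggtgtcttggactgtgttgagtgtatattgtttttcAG
Sfpq intron 6, chr4:127026719-127026768: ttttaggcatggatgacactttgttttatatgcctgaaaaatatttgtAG
These had 11 and 9 pyrimidines before the AG. Of the other kept 3′ ends in these genes, Nono introns 5 and 10 had 14 and 13, Sfpq intron 3 had 10 and Ewsr1 intron 15 had 11, so the counts overlapped between Ewsr1 and Nono. Bin 14 of the Sfpq unit, which holds the printed end, made up 0.339% ± 0.122 and 0.375% ± 0.148 of the unit in the control groups (n = 3 and n = 2), and 0.328% ± 0.0789 and 0.298% ± 0.0898 in the SF3a1 groups (n = 3 each), without and with LPS. Over all intron bins of Nono or of Sfpq together, the share was higher with SF3a1 siRNA without overlap in the absence of LPS, as in 25.3% of all units. Their differences there were 0.21 and 0.23 percentage points, near the median of 0.18 over all units. In the presence of LPS the shares of both genes overlapped between the siRNAs.

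**Figure D4:**
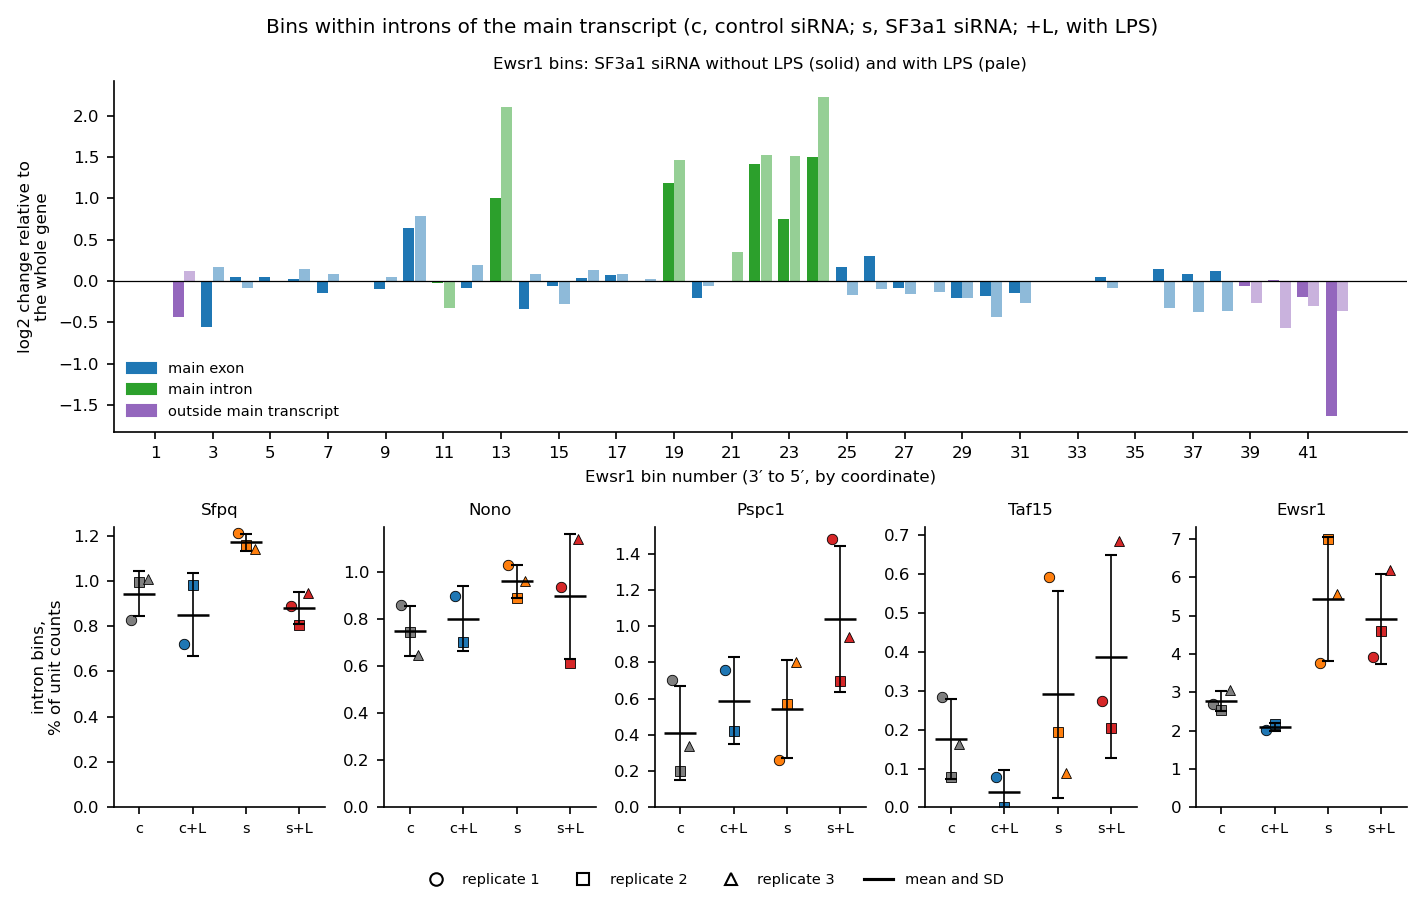
Top, log2 change of each Ewsr1 bin with SF3a1 siRNA relative to the whole gene, without LPS (solid) and with LPS (pale), coloured by place in the main transcript. Bottom, share of counts in bins within introns for 5 genes in 11 libraries, with symbols for the replicate and bars for the mean and SD. Ewsr1 intron bins reach 2.22 on the log2 scale, and the intron share of Ewsr1 lies at or below 3.07% with control siRNA and at or above 3.77% with SF3a1 siRNA.

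The intron bins of the other genes took small shares. In Nono they were 0.751% ± 0.106 (n = 3) and 0.800% ± 0.138 (n = 2) with control siRNA and 0.960% ± 0.0689 and 0.895% ± 0.264 (n = 3 each) with SF3a1 siRNA. Bins 19 and 20 of Nono, both in intron 9, changed by 0.39 and 0.93 and by 0.05 and −0.66 relative to the gene, and bin 10, in intron 5, by −0.46 and −0.65. Their counts were low, at no more than 111 per library. In Pspc1 the intron bins were 0.413% ± 0.259 and 0.590% ± 0.241 with control siRNA and 0.543% ± 0.272 and 1.04% ± 0.399 with SF3a1 siRNA. Bin 2 of Pspc1, in its last intron, changed by 0.55 and 0.92 from at most 20 counts per library, and the exon bins 4 and 14 changed by −0.19 and 0.60 and by 0.15 and −0.51, with overlapping shares. In Taf15 the intron bins were 0.175% ± 0.102 and 0.0396% ± 0.056 with control siRNA and 0.291% ± 0.266 and 0.388% ± 0.261 with SF3a1 siRNA, without and with LPS. These shares overlapped without LPS, and with LPS every SF3a1 library was above both control libraries, as in 27.4% of all units. Among the Taf15 bins that passed the filter on low counts, those with the largest changes were all exons of the main Taf15 transcript, namely bin 16 (−0.12 and −0.46), bin 13 (−0.10 and −0.43) and bin 7 (0.39 and 0.42). None of these Nono, Pspc1 or Taf15 bins was called. The 15 bins of Matr3 could not be given coordinates, because the annotation used here divides the gene differently. Of these, bin 1 changed by −0.12 and 0.66, bin 3 by 0.21 and 0.48 and bin 14 by −0.06 and 0.48, also without a call.

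Genes that work with the 6 were then counted from lists written from general knowledge, with earlier results of these data known. Of 34 paraspeckle components beside the members, 32 were tested. Beyond the genes given by the naming rule, those that make up a small count were named after their values were seen. With SF3a1 siRNA without LPS 12 fell and 5 rose (Ss18l1, Rbm3, Aggf1, Akap8l and Bcl6), where 20.1% of all tested genes fell and 13.7% rose, with a median log2 change of −0.26 against −0.02 over all genes tested. With LPS 6 fell and 7 rose, where 20.4% of all genes fell and 18.4% rose, with a median of −0.09 against −0.04. With the replicate block 15 were lower and 5 higher without LPS, where 26.3% and 20.7% of all genes were, and with LPS 9 were lower and 8 higher, where 26.3% and 24.6% were. Rbm14, Hnrnph3, Hnrnpul1, Rbm12, Rbm4b and Rbmx fell in both comparisons, while Ss18l1, Rbm3, Aggf1, Akap8l and Bcl6 rose in both. Ss18l1, a subunit of BAF chromatin remodelling complexes, rose by 1.08 (SE 0.22, adjusted p = 0.00281) and 0.71 (adjusted p = 0.0261). Hnrnph3, an RNA-binding protein of the hnRNP H family, fell by 1.78 without LPS (SE 0.28, adjusted p = 0.000562) and by 1.16 with LPS (SE 0.27, adjusted p = 0.00634). Hnrnpul1, a nuclear RNA-binding protein, fell by 0.84 (SE 0.16, adjusted p = 0.00235) and by 0.97 (SE 0.16, adjusted p = 0.000796). Rbm12, whose exons overlap those of Cpne1 so that its counts are less certain, fell by 1.09 (SE 0.18, adjusted p = 0.000929) and by 0.51 (SE 0.18, adjusted p = 0.0505). Aggf1, an angiogenic factor with a G-patch and a forkhead-associated domain, rose by 0.39 (SE 0.13, adjusted p = 0.039) and 0.75 (SE 0.13, adjusted p = 0.000813).

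Neat1, the noncoding RNA on which paraspeckles form, responded to LPS. It was at 216, 182 and 299 CPM with control siRNA without LPS and at 119, 63.5 and 101 CPM with control siRNA with LPS. The SF3a1 libraries had 161, 139 and 167 CPM without LPS and 87.1, 85.4 and 107 CPM with LPS. The groups without and with LPS did not overlap for either siRNA. It fell with LPS by 1.29 on the log2 scale with control siRNA (SE 0.23, adjusted p = 0.00114) and by 0.74 with SF3a1 siRNA (SE 0.23, adjusted p = 0.0771). With SF3a1 siRNA it fell by 0.58 without LPS (SE 0.23, adjusted p = 0.0833), and with LPS the log2 change was −0.02 ± 0.23 (adjusted p = 0.958). These SF3a1 effects did not differ detectably (difference 0.56 ± 0.32, adjusted p = 0.549). For LPS, 6 of the 32 tested paraspeckle genes fell and 0 rose with control siRNA (median −0.14, all genes −0.02), where 18.3% of all genes fell and 13.8% rose. With SF3a1 siRNA, where 4.06% of all genes fell and 6.60% rose, 3 fell (Neat1, Ss18l1 and Cirbp, a cold-inducible RNA-binding protein) and 0 rose (median 0.08, all genes 0.01). With the replicate block these counts were 9 lower and 1 higher (Zfp335) with control siRNA, and 3 lower and 1 higher (Tardbp) with SF3a1 siRNA. Over all genes the block gave 25% lower and 18.8% higher with control siRNA, and 9.48% lower and 11.3% higher with SF3a1 siRNA.

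Of 15 genes for import, methylation and partners of the FET proteins, 14 were tested, which include import factors and partners but no methylation enzyme. With SF3a1 siRNA 4 fell (Hnrnpa1, Kpna2, Taf1 and Taf4) and 0 rose without LPS (median −0.38, all genes −0.02), beside the 20.1% and 13.7% of all genes given above. With LPS 2 fell (Tnpo2 and Kpna2) and 1 rose (Kpnb1, by 0.35, adjusted p = 0.0939), where 20.4% of all genes fell and 18.4% rose. The median there was −0.08 against −0.04. With the block this became 8 lower and 1 higher (Taf7), and 5 lower and 2 higher (Kpnb1 and Taf7), where 26.3% and 20.7%, and 26.3% and 24.6%, of all genes were. Kpna2, an importin α that carries proteins into the nucleus, fell by 1.2 (SE 0.14, adjusted p = 0.000109) and by 0.74 (SE 0.14, adjusted p = 0.00172). Taf4, a TFIID subunit, fell by 0.61 without LPS (SE 0.18, adjusted p = 0.0273), and with LPS its log2 change was −0.16 ± 0.18 (adjusted p = 0.580). Hnrnpa1, which has many processed pseudogenes and so uncertain counts, fell by 0.55 (SE 0.15, adjusted p = 0.0148), and with LPS its log2 change was −0.32 ± 0.15 (adjusted p = 0.118, and 0.0406 with the block). Tnpo2, a transportin that imports RNA-binding proteins, fell by 0.85 with LPS (SE 0.27, adjusted p = 0.0317), and without LPS its log2 change was −0.40 ± 0.27 (adjusted p = 0.309, and 0.0311 with the block). LPS lowered 3 of the 14 (Tnpo1, Kpna2 and Taf4) and raised 1 (Taf7) with control siRNA (median −0.21, and 6 lower and 2 higher with the block), where 18.3% of all genes fell and 13.8% rose (25% and 18.8% with the block). With SF3a1 siRNA edgeR called 0 of them for LPS (median 0.12), where 4.06% of all genes fell and 6.60% rose. With the block Polr2a was lower and Tardbp, Hnrnpd and Taf7 were higher, where 9.48% and 11.3% of all genes were.

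Of 16 partners of MATR3 and nuclear matrix proteins, all were tested. With SF3a1 siRNA 7 fell and 2 rose without LPS (median −0.34, all genes −0.02), and 5 fell and 3 rose with LPS (median −0.19, all genes −0.04). With the block 8 were lower and 2 higher without LPS, Raver1 being added, and 7 lower and 3 higher with LPS, Ptbp1 and Hnrnpu being added. The shares of all genes called lower and higher were 20.1% and 13.7% without LPS and 20.4% and 18.4% with LPS, and with the block 26.3% and 20.7%, and 26.3% and 24.6%. The genes that rose were Ptbp2 and Cdc5l in both, with Hnrnpl with LPS. Ptbp2, the neuronal relative of the splicing repressor Ptbp1, rose by 0.89 (adjusted p = 0.0378) and 1.33 (adjusted p = 0.00429), and Ptbp1 fell by 0.58 without LPS (adjusted p = 0.0369). With LPS the log2 change of Ptbp1 was −0.38 ± 0.19 (adjusted p = 0.142, and 0.00923 with the block). Lmnb1 and Lmnb2, the B-type lamins of the nuclear envelope, fell by 1.23 (SE 0.17, adjusted p = 0.000272) and 1.14 (SE 0.19, adjusted p = 0.00101) without LPS, and by 0.46 (adjusted p = 0.0537) and 0.56 (adjusted p = 0.0423) with LPS. Sun2, which links the lamina to the outer envelope, fell by 1.35 (SE 0.26, adjusted p = 0.00228) and 0.80 (SE 0.26, adjusted p = 0.0325). Hnrnpm, a splicing regulator, fell by 0.84 (SE 0.13, adjusted p = 0.000595) and 0.76 (SE 0.13, adjusted p = 0.00096). The lamins and Sun2 also fell with LPS with control siRNA, by 1.29, 0.91 and 1.02 (adjusted p = 0.000114, 0.00333 and 0.0106). In all, 6 of these 16 genes fell with LPS with control siRNA and 1 (Lmnb1) fell with SF3a1 siRNA, where 18.3% and 4.06% of all genes fell. In either, 0 rose, where 13.8% and 6.60% of all genes rose. With the block, Numa1 also fell and Ptbp2 rose with LPS with SF3a1 siRNA, where 9.48% of all genes were lower and 11.3% higher. No gene of the 3 lists was called in the difference of the SF3a1 effects, by edgeR without the block. With the block 2 paraspeckle genes (Hnrnpr and Hnrnph1) and 1 nuclear matrix gene (Lmnb1) were called higher there and 0 lower, where 6.54% and 5.18% of all genes were.

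**Figure D5:**
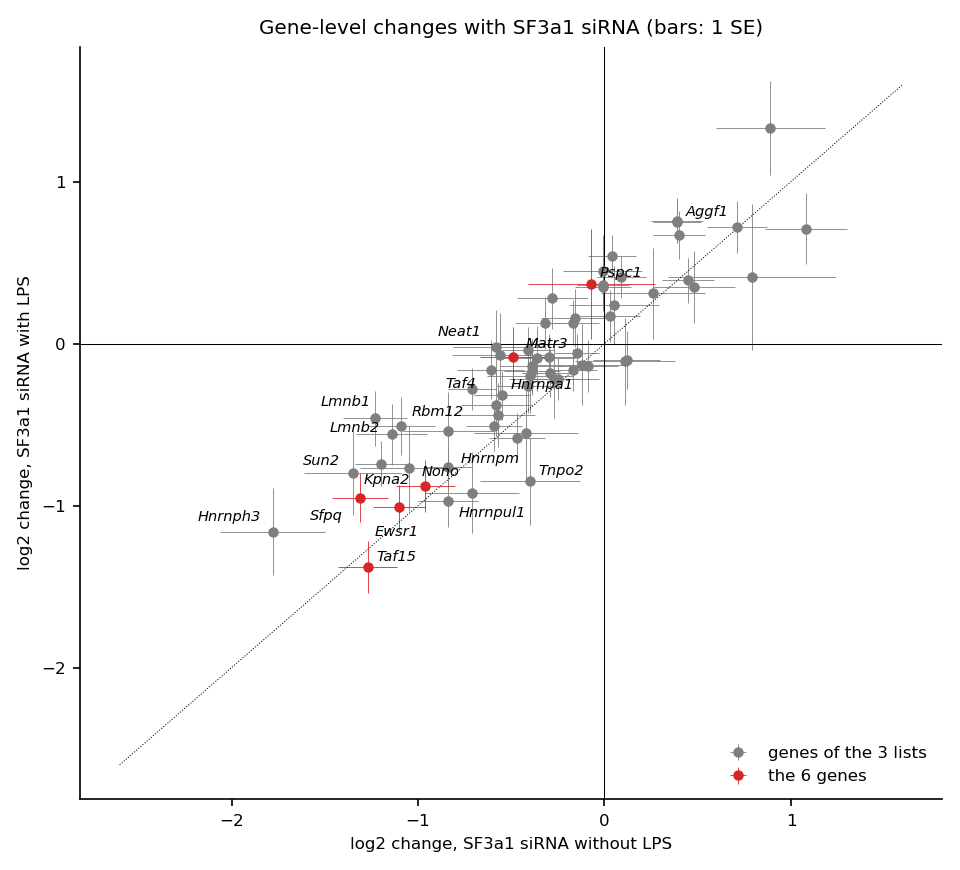
Log2 change with SF3a1 siRNA without LPS (horizontal axis) and with LPS (vertical axis) for the 6 genes (red) and the tested genes of the 3 lists (grey), with bars of 1 SE and a dotted line where both changes are equal. Hnrnph3 lies farthest to the left, at −1.78 and −1.16, and Pspc1 lies near 0 without LPS.

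The genes whose level over the 12 libraries was most like that of Sfpq were taken from the 9302 tested genes that averaged 10 CPM or more. Because the 6 libraries with SF3a1 siRNA and the 6 with control siRNA form separate clusters for Sfpq, these correlations mostly describe the siRNA groups and are given as a description. Pearson's r of log2 CPM was 0.99 for Ddx31, 0.99 for Snx5, 0.977 for Ddx39, 0.977 for Mettl26 and 0.976 for Dnajc8. Among the other members it was 0.975 for Taf15 (rank 9 of 9302), 0.955 for Ewsr1 (rank 72), 0.887 for Nono (rank 459), 0.731 for Matr3 (rank 1345) and −0.031 for Pspc1 (rank 4762). For Sf3a1 it was 0.973 (rank 11).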

How the data were processed

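The authors sequenced polyadenylated RNA single-end on the Ion Proton and mapped it to mm10 with GSNAP. They deposited raw counts of uniquely mapped reads per gene from HTSeq and per exon bin from the counting script of DEXSeq, in which a read that spans several bins counts in each and overlapping genes form a joined unit. Neither table is normalized, and the counts of each library are given separately. Reads that the gene counting assigned to no feature were 17.75 to 19.83% of the total in control and 18.2 to 27.2% in SF3a1 libraries. They stayed out of library sizes, and how many of them lay within introns was not tested. The exon file of control siRNA with LPS replicate 3 was not analysed here, which leaves 11 libraries with 17269833 to 59095475 bin counts.

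Gene counts of 12 libraries were fitted in R 4.3.3 with edgeR 4.0.16 (TMM scaling, filterByExpr, quasi-likelihood test with 1 mean per group). Bin counts were tested with diffSpliceDGE in edgeR, whose coefficients were converted from natural log to log2. Calls used a Benjamini-Hochberg adjusted p of 0.1. DESeq2 1.42.0 and limma 3.58.1 served as alternatives. Changes are log2, and levels are CPM after TMM scaling. Summaries and figures were made with Python 3.11.15, pandas 2.3.3, numpy 2.4.6 and matplotlib 3.10.9. Bins were given coordinates from GENCODE vM21 (mm10) where a rebuilt unit had the same number of bins (24128 of 37223 units, 191874 of 354841 bins).

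The members, the lists, the tests and the alternatives were chosen with earlier results of these data known. The text names the 6 genes, up to 3 bins of each with the largest absolute log2 change with SF3a1 siRNA and any bin called elsewhere, Sf3a1 and Neat1, up to 4 genes per list with the smallest p in either SF3a1 comparison, and the 5 genes most like Sfpq by Pearson's r. Some further bins, among them bins of Ewsr1, were named outside this rule. One gene is not reported here, so it was left out of the lists after their values were seen, for a reason unrelated to its values. Replicates were separate cultures by the design, and they differed by more than sampling noise. Libraries of the same replicate number deviated together (correlation of deviations from the group means 0.143 to 0.6 over 18 pairs, median 0.356), so the number was taken to pair the samples, and the fit with it as a block is given where it changes a call. Tested on simulated data with 200 changed genes among 14983, the gene step recovered 69.5% and 68.0% of changes for LPS under control and SF3a1 siRNA (7.3% and 9.3% of calls false), and 70.0% and 72.0% for SF3a1 siRNA in the absence and presence of LPS (11.4% and 9.4% false). The bin step, with 200 changed among 10609 genes, recovered 50.5% for LPS with control siRNA and 56.5% for SF3a1 siRNA in the absence of LPS. Of the genes with a called bin, 2.8% and 12.7% were not among those changed. Wrongly called bins within a changed gene were not counted. Alternatives were other scaling (DESeq2 size factors), no filter, DESeq2, only the groups compared, the block, each library left out, limma-voom and a DEXSeq model.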

Additional observations from a re-analysis of the deposited data

How the results depend on the processing

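With the replicate block, 3115 genes were called for LPS with SF3a1 siRNA (1598 without it) and 1756 for the difference of the SF3a1 effects (520), and the latter count was 930 with no filter, 966 with DESeq2 and 1012 with replicates 2 and 3 only, an alternative chosen after seeing the data. Of these differences 44.2% were higher, 36.0% with DESeq2 size factors, 55.8% with the block and 54.7% with replicates 2 and 3 only. With each library left out, the gene counts ran from 3985 to 5023 for LPS with control siRNA, 1050 to 2005 for LPS with SF3a1 siRNA, 3881 to 5627 and 4744 to 5993 for SF3a1 siRNA without and with LPS, and 273 to 711 for the difference. Called bins numbered 123 for LPS with control siRNA (285 with the block, 187 with the DEXSeq model, 49 to 158 with a library left out), 39 for LPS with SF3a1 siRNA (105 with the block, 21 with limma-voom, 26 to 42), 961 for SF3a1 siRNA without LPS (2113 with the block, 1490 with the DEXSeq model, 1466 with replicates 2 and 3 only, 527 to 1131), 756 with LPS (1793 with the block, 1275 with the DEXSeq model, 101 to 888) and 0 for the difference (2 with the block, 1 with limma-voom, 4 with the DEXSeq model, 2 with replicates 2 and 3 only, 0 to 3). The lowest of these with LPS, 101, came without replicate 1 of control siRNA with LPS, which left 1 library in that arm, assumed to vary like the others. The cause of the other shifts was not tested. With a library left out, small log2 changes could take the other sign, with ranges of −0.14 to 0.06 for Sfpq, −0.05 to 0.08 for Nono and −0.03 to 0.10 for Ewsr1 for LPS with control siRNA, −0.05 to 0.25 for Nono and −0.41 to 0.02 for Pspc1 for LPS with SF3a1 siRNA, −0.24 to 0.23 for Pspc1 with SF3a1 siRNA without LPS, −0.21 to 0.04 for Matr3 with SF3a1 siRNA with LPS, and −0.05 to 0.26 for Nono in the difference of the SF3a1 effects. Pspc1 ran from −0.90 to −0.38 for LPS with control siRNA and from 0.09 to 0.61 with SF3a1 siRNA with LPS. For the difference of the SF3a1 effects, Sfpq ran from 0.22 to 0.42 and Pspc1 from 0.17 to 0.68. Taf15 ran there from −0.26 to −0.02, Ewsr1 from 0.0 to 0.19 and Matr3 from 0.27 to 0.53. Matr3 with SF3a1 siRNA without LPS ran from −0.54 to −0.31, the latter without replicate 2 of control siRNA without LPS, and for LPS with SF3a1 siRNA from 0.16 to 0.40, the former without replicate 3 of SF3a1 siRNA with LPS. The fall of Pspc1 with LPS under control siRNA was called with the block (−0.66), with no filter (adjusted p = 0.0137), with replicates 2 and 3 only (adjusted p = 0.0122) and without replicate 1 of control siRNA without LPS (adjusted p = 0.0711), and Matr3 for LPS with SF3a1 siRNA with the block alone (0.27). The block changed no other call of the 6 genes in the tested comparisons. The mean share of the last Sfpq bin ran from 0.0137% to 0.0360% with control siRNA without LPS, 0.0600% to 0.0602% with control siRNA with LPS, 0.883% to 1.07% with SF3a1 siRNA without LPS and 1.11% to 1.74% with SF3a1 siRNA with LPS, with a library left out. Several of the named bins held under 30 counts per library, which limits their precision.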
